A study of Homo sapiens with 12 samples.

Results

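Cytosolic ribosomal protein genes encode the proteins of the large (RPL) and small (RPS) subunits of the ribosome that translates messenger RNA in the cytoplasm. They were followed here on Affymetrix Human Genome U133 Plus 2.0 arrays in U2OS, an established line from a human bone tumour (osteosarcoma) whose own p53 is not mutated. Members were the genes whose symbol in the probe annotation of the array was RPL or RPS with a number, with or without an A, X or Y ending, or *RPLP0*, *RPLP1*, *RPLP2* or *RPSA*. Genes of the RPS6K kinases, *RPS27L*, paralogs with an L suffix and pseudogenes were left out. The annotation listed 68 such genes, of which 53 had a probe set that was paired with no other gene. Each was read through the probe set of this kind with the highest mean over the 12 arrays. A further 15 appear only in probe sets that are also paired with other genes, mostly small nucleolar RNAs encoded in their introns, and are not analysed here. Of the 53 members, 52 passed the filter on low signals and were tested among 13707 genes. The remaining one, on the Y chromosome, lay under the filter and its level is not given.

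The series has 12 arrays in 4 groups of 3. One group was left untreated and served as the control for cells given 0.6 µg/ml doxorubicin for 24 hours. Cells in 0.1% DMSO, the solvent, for 24 hours were the control for cells given 10 µM nutlin-3 for 24 hours. All groups were the same line with its endogenous wild-type p53, grown in the same medium. The labels do not tell if the replicates of a group came from cultures of their own. A p-value here therefore reflects the variation among these arrays, part or all of which may be technical.

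Ribosomal proteins are among the most abundant products of a growing cell, and their messenger RNAs typically begin with a run of pyrimidines, the 5' terminal oligopyrimidine (TOP) motif, through which mTORC1 and LARP1 control their translation and stability. Some ribosomal proteins also have a part in the p53 pathway. When ribosome assembly fails, RPL5 and RPL11, bound to 5S ribosomal RNA, bind and inhibit MDM2, the ubiquitin ligase that restrains p53. Doxorubicin breaks DNA by poisoning topoisomerase II and also disturbs transcription of ribosomal RNA, whereas nutlin-3 frees p53 by occupying its pocket on MDM2.

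The start sites of 6 members are printed to show the pyrimidine run they share, since these genes gave the largest falls and rises with doxorubicin. Sequences are those of RefSeq for GRCh38.p14, from 100 bases before to 20 bases from the annotated start, 5' to 3' on the strand of the gene. Capitals mark the run of pyrimidines that begins with C within 10 bases of that start. The first 4 fell with doxorubicin and the other two rose. They lie at chr22:39319604-39319723, minus strand (*RPL3*), chr4:108620476-108620595, plus strand (*RPL34*), chr9:19380217-19380336, minus strand (*RPS6*), chr11:119018324-119018443, minus strand (*RPS25*), chr19:1438296-1438415, plus strand (*RPS15*) and chr19:41860155-41860274, plus strand (*RPS19*).
RPL3: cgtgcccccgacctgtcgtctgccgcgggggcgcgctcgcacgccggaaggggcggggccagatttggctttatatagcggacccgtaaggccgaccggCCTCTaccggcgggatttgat
RPL34: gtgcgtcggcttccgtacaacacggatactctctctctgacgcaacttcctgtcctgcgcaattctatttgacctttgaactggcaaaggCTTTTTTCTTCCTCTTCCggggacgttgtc
RPS6: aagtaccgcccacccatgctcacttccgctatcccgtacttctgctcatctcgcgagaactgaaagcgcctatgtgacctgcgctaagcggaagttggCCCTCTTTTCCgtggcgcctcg
RPS25: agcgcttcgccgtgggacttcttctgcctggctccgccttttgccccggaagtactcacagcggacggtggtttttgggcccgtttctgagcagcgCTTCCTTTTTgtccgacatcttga
RPS15: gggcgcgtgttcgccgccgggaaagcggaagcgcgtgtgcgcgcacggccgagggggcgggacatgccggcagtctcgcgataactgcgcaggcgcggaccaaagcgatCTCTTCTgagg
RPS19: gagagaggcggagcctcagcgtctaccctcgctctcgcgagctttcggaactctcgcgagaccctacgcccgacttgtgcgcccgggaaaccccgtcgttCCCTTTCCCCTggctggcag

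The run was 5 bases long in *RPL3*, 18 in *RPL34*, 11 in *RPS6*, 10 in *RPS25*, 7 in *RPS15* and 11 in *RPS19*. Promoters from 250 bases before to 50 bases after the start were given in RefSeq for 47 members. A C followed by at least 4 pyrimidines, within 10 bases of the start on the sense strand, was found in 43 of them (91.5%), against 33.3% of all 27305 promoters and 31.9% of 69 promoters of mitochondrial ribosomal protein genes. CCGGAAG, the core of ETS factor sites such as that of GABPA, was searched on both strands and can overlap the run of pyrimidines, as it does in *RPL34*. It was present in 17 of the 47 promoters (36.2%), in 10.7% of all promoters, in 18.2% of those of the genes tested and in 42.0% of the mitochondrial family. All 5 members that fell with doxorubicin had the pyrimidine run, as did all 4 of the members that rose whose promoter was listed. CCGGAAG was in 4 of the 5 that fell and in 0 of these 4 that rose, numbers too small to compare. AAGATGG, which is part of YY1 sites, was found on either strand in 5 of 47 promoters (10.6%), in 6.06% of all, in 7.36% of those of the genes tested and in 33.3% of the mitochondrial family. TATAAA lay in the 60 bases before the start, on the sense strand, in 1 of 47 (2.13%) and in 3.09% of all. These matches describe letters in a window and not binding.

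Signals were deposited as linear MAS5 intensities, and changes are given as log2(signal + 16). Ribosomal protein genes gave some of the brightest signals: the mean over 12 arrays was between 9635 and 42736 for 49 members. The other three, *RPL27A*, *RPL36A* and *RPLP2*, were represented by dim probe sets whose group means did not exceed 858. Correlations between arrays of a group were 0.979 to 0.990 over all genes. The osteoblast markers *COL1A1*, *SPARC*, *RUNX2* and *SPP1* were above the filter, and *ALPL*, *IBSP*, *BGLAP* and *COL1A2* were not among the genes tested. Of 6 leukocyte markers 2 were tested, *LAPTM5* and *CD3E*, and not *PTPRC*; their summed signal was 111 to 181 in untreated cells, 435 to 677 with doxorubicin, 77.7 to 139 in DMSO and 285 to 372 with nutlin-3. Of 5 epithelial markers 4 were tested, with *KRT18* the main part of sums of 19442 to 20363, 12593 to 15814, 13684 to 14538 and 18032 to 19434 in the same order of groups. Of 5 endothelial markers *PECAM1* and *TEK* were tested, with sums of at most 321, and *CDH5*, *KDR* and *VWF* were not. A part of these markers in the results was not tested. As a sign of RNA quality, the ratio of 3' to 5' signals was read for *ACTB*, and it was 3.12 ± 0.577 with doxorubicin (SD, n = 3). Untreated cells had 1.53 ± 0.0754, and the exact permutation test gave p = 0.1, below which 6 arrays cannot go. It was 1.31 ± 0.0260 with nutlin-3 and 1.28 ± 0.0281 with DMSO. That of *GAPDH* was 1.07 ± 0.116 with doxorubicin and 1.02 ± 0.0356 in untreated cells (exact permutation p = 0.6), and 0.942 ± 0.0102 in DMSO. A part of RNA quality in the results was not tested. In bulk RNA, fewer cells with a transcript and less of it per cell cannot be told apart.

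As a family the ribosomal protein genes moved little with doxorubicin, but a few members moved in opposite directions. Of 52 members, 5 rose and 5 fell at an adjusted p under 0.05 (limma, Benjamini-Hochberg over all genes), which is 9.62% in each direction. Among all genes tested 55.9% were called, 30.3% higher and 25.7% lower. In 10 members all doxorubicin arrays lay above all untreated arrays and in 6 below, as did 32.6% and 26.5% of all genes. The median log2 change was 0.02 over members and 0.08 over all genes. The SD of the changes was 0.20 over members and 0.82 over all genes, and the members ranged from -0.62 to 0.32. Mean signals were at least 9635 for 49 members, while the filter for all genes was 54.6. The SDs compared here and below were not matched for signal. When arrays were centred on their medians, the median of all genes moved to -0.10 and that of members to -0.16. Centring moves all genes alike and so keeps the members 0.06 below all genes, and after quantile normalization they were 0.05 below. The split of calls turned on this scaling: after centring 0 members were called higher and 15 lower, and after quantile normalization 7 and 10. With the mean of all single-gene probe sets of each gene it was 4 and 12. The share of all genes called under these settings is not given here, so these counts do not set the members against all genes.

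Of the large subunit genes, 3 of 32 fell and 1 rose with doxorubicin. *RPL34*, a component of the large subunit, gave signals of 19380.5, 19599 and 21701 in untreated cells and 11721, 13367 and 14604 with doxorubicin. All doxorubicin arrays lay below all untreated arrays, and the log2 change was -0.62 (SE 0.09, adjusted p = 3.3e-05). *RPL3*, which lies near the peptidyl transferase centre, gave 21319.6, 21539 and 23248 in untreated cells and 14725, 13494 and 16504 with doxorubicin. These groups did not overlap either, and the change was -0.57 (SE 0.09, adjusted p = 2.9e-05). *RPL14* changed by -0.22 (SE 0.09, adjusted p = 0.039), from 17489.8 ± 1223 to 14985 ± 1337 (SD, n = 3), and its groups overlapped. *RPL23A*, part of the docking site at the exit of the peptide tunnel, rose by 0.28 (SE 0.10, adjusted p = 0.021), from 30354 ± 1288 to 37235 ± 5865.

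Among small subunit genes, 2 of 20 fell and 4 rose. *RPS6*, the ribosomal substrate of S6 kinases, gave 27977, 30369.9 and 30215 in untreated cells and 19802, 23108 and 25590.1 with doxorubicin. Its doxorubicin arrays were all lower, with a change of -0.38 (SE 0.09, adjusted p = 0.0027). Against DMSO in place of untreated cells *RPS6* had -0.13 (adjusted p = 0.25), which was not called. *RPS25*, one of the proteins reported to bind MDM2, gave 16481, 18395 and 20259 in untreated cells against 13789, 13974 and 16110.5, a change of -0.33 (SE 0.09, adjusted p = 0.0044) with no overlap. *RPS15*, whose tail reaches the decoding centre, rose from 20018, 22230.5 and 21410.3 to 25753, 29744 and 24432. Each doxorubicin array was above each untreated one, and the change was 0.32 (SE 0.08, adjusted p = 0.0025). *RPS19*, the gene most often mutated in Diamond-Blackfan anaemia, gave 44157, 44146 and 40211 in untreated cells and 48329.7, 64857 and 48982 with doxorubicin, a change of 0.32 (SE 0.10, adjusted p = 0.014). The second doxorubicin array was far the highest of that group. *RPS27*, a zinc finger protein of the small subunit, rose by 0.29 (SE 0.10, adjusted p = 0.018) and *RPS24* rose by 0.28 (SE 0.10, adjusted p = 0.030).

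**Figure D1:**
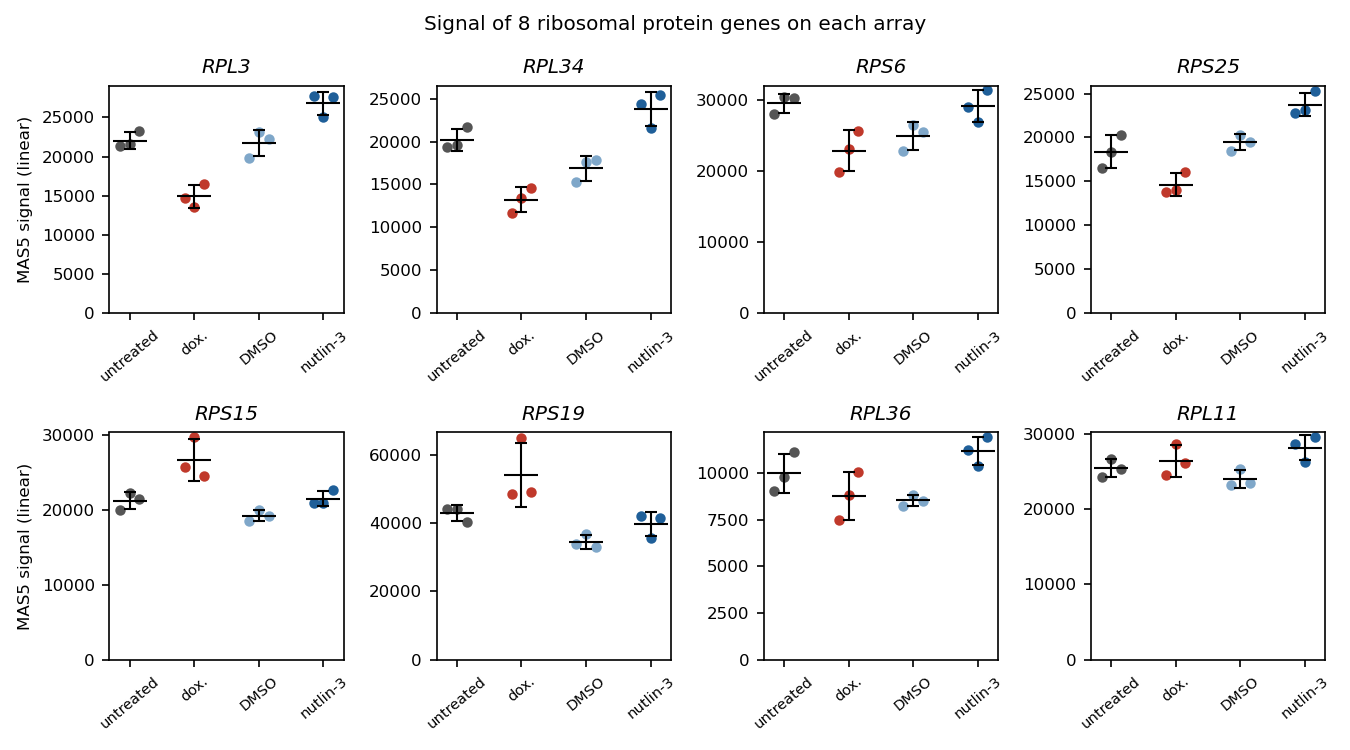
MAS5 signal (vertical axis, linear, from 0) of 8 ribosomal protein genes on the 12 arrays, by group. Points are arrays, and bars give the mean and SD of 3 arrays. *RPL3* and *RPL34* are lowest with doxorubicin, at 14907 ± 1514 and 13231 ± 1446, and highest with nutlin-3, at 26794 ± 1473 and 23813 ± 1977.

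The falls of *RPL3*, *RPL34* and *RPS25* passed the test under all 26 alternatives, and none of the 5 rises did. These falling genes had no other single-gene probe set above the filter, so the choice of probe set was not varied for them. *RPL3* was read through a probe set of the _x_at type and *RPS25* through one of the _s_at type. Probes of these types can match several transcripts. Of the members tested, 27 were read through the _s_at type, 14 through the _x_at type and 11 through the plain type. Signal shared with other transcripts was not tested. When arrays were centred on their medians the rises stayed above 0 but none was called, with *RPS15* at 0.15 (adjusted p = 0.28), 0.15 for *RPS19* (adjusted p = 0.31) and 0.11, 0.11 and 0.10 for *RPS27*, *RPL23A* and *RPS24* (adjusted p = 0.44 to 0.49). Without the second doxorubicin array the changes were 0.19 for *RPS19* (adjusted p = 0.091), 0.18 for *RPS27* (adjusted p = 0.11), 0.16 for *RPL23A* (adjusted p = 0.13) and 0.14 for *RPS24* (adjusted p = 0.19), so these calls rest on that array. Calls were also lost without the first untreated array for *RPL23A* (0.27, adjusted p = 0.056) and *RPS24* (0.29, adjusted p = 0.055), without the second for *RPL23A* (0.26, adjusted p = 0.067), *RPS24* (0.29, adjusted p = 0.058) and *RPL14* (-0.22, adjusted p = 0.085), and without the third for *RPS19* (0.28, adjusted p = 0.060), *RPS24* (0.27, adjusted p = 0.077) and *RPL14* (-0.18, adjusted p = 0.15). *RPL14* was also lost without the first (-0.16, adjusted p = 0.17) or the third (-0.23, adjusted p = 0.069) doxorubicin array. *RPS15* passed whichever array was left out.

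Other probe sets of the same genes gave the same sign for each called member that had one. Of the 10 members called with doxorubicin, 6 had further single-gene probe sets above the filter, and these lay on the same side of 0 in all 6. *RPS6* had other probe sets at -0.55 and -0.41, both called. The second probe set of *RPL14* fell by 0.53 and was called, and another, which is dim, had -0.003. *RPS19* had others at 0.36 and 0.90, both called. *RPL3*, *RPL34* and *RPS25* were represented by 1 probe set each. Over all 104 single-gene probe sets of members, 10 were called higher and 20 lower. Probe sets of all other genes were not counted in this way, so the split describes the members only. With 1 probe set per gene, 30.3% of all genes were called higher and 25.7% lower.

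With nutlin-3 the change of every tested ribosomal protein gene was above 0 relative to DMSO, though most were not called. The 52 changes ran from 0.02 to 0.49, with a median of 0.18 against 0.00 for all genes, and the SD over members was 0.08 against 0.48. Of the 52, 12 rose and 0 fell in the limma fit (23 and 0 at an unadjusted p under 0.05), while 26.5% of all genes were called, 12.6% higher and 13.9% lower. Those percentages are at the adjusted p, and all genes were not counted at the unadjusted one. The 12 are 23.1% of the members, and 24 members had all nutlin-3 arrays above all DMSO arrays, as did 21.2% of all genes. At the members' median the 3 nutlin-3 arrays lay 0.04, -0.12 and 0.09 from the untreated mean and the 3 DMSO arrays -0.24, -0.11 and -0.21. The second nutlin-3 array thus lay below the second DMSO array, so the family as a whole overlapped between these groups.

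The largest rise with nutlin-3 was that of *RPL34*, from 15248, 17587 and 17861 in DMSO to 24424, 21603 and 25413 (log2 change 0.49, SE 0.09, adjusted p = 0.00079). Its groups did not overlap. *RPL36*, a large subunit protein, went from 8225, 8860.4 and 8538 to 11265, 10413 and 11934, also without overlap (0.39, SE 0.10, adjusted p = 0.0089). *RPS9*, which affects decoding accuracy, rose by 0.31 (SE 0.09, adjusted p = 0.020) and *RPL3* by 0.30 (SE 0.09, adjusted p = 0.015). *RPL3* signals were 19795, 23090.3 and 22272 in DMSO and 27689, 25094 and 27600.1 with nutlin-3. *RPL12*, at the base of the stalk, rose by 0.29 (SE 0.09, adjusted p = 0.021), *RPS25* by 0.29 (SE 0.09, adjusted p = 0.023) and *RPL35A*, a Diamond-Blackfan anaemia gene, by 0.29 (SE 0.08, adjusted p = 0.018). The other called members were *RPL37* (0.27), *RPL29* (0.27), *RPL31* (0.26), *RPL11* (0.23) and *RPL27* (0.23), with adjusted p from 0.027 to 0.042. Of the 12, 10 belong to the large subunit and 2 to the small one, out of 32 and 20 tested.

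The number of members called changed with the array left out. The share of all genes called in those fits, and under the other settings of this paragraph, is not given. These counts therefore describe the members only. The number of members called was 2 without the first DMSO array or the third nutlin-3 array, 4 without the third DMSO array, 5 without the first nutlin-3 array and 17 without the second nutlin-3 array. *RPL34* and *RPL36* were called whichever array was left out. Against untreated cells in place of DMSO neither was called in the limma fit, with 0.23 for *RPL34* (adjusted p = 0.060) and 0.17 for *RPL36* (adjusted p = 0.21). With arrays centred on their medians 1 member was called, *RPL34*, and the median over members was 0.15. Quantile normalization gave a median of 0.09. Of the 7 called members with other single-gene probe sets, those of 4 all shared the sign, and *RPL31* was called in both directions by different probe sets.

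**Figure D2:**
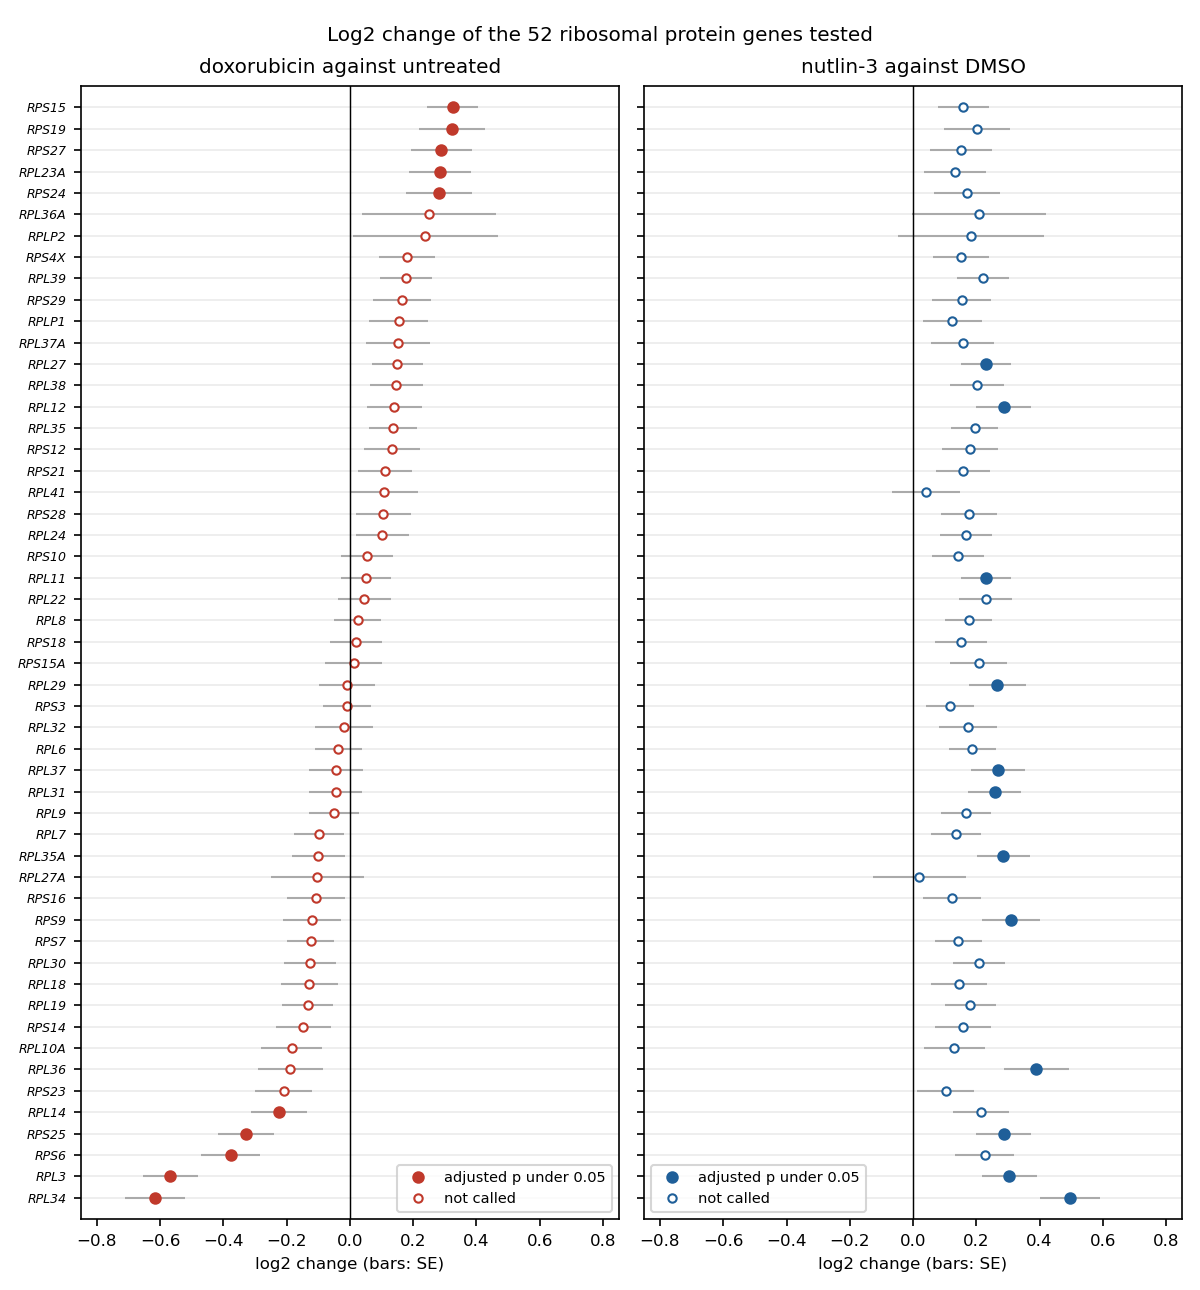
Log2 change (horizontal axis, with bars of 1 SE) of the 52 ribosomal protein genes tested, ordered by the change with doxorubicin. The left panel shows doxorubicin against untreated and the right panel nutlin-3 against DMSO, with 3 arrays in each group, and filled points passed an adjusted p of 0.05. Doxorubicin changes run from -0.62 to 0.32 on both sides of 0, while all nutlin-3 changes lie from 0.02 to 0.49.

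The level in DMSO itself lay below that of untreated cells. Of 52 members, 48 had a change under 0 in DMSO, with a median of -0.19 against 0.02 for all genes. In the limma fit 5 fell and 1 rose, which for falls is 9.62% of members. Of all genes 14.3% were called, 6.1% lower and 8.19% higher. In 34 members every DMSO array was below every untreated array, and this held for 14.8% of all genes. *RPL24*, a large subunit protein, fell from 37039.9, 37529 and 37585 to 27703, 30115 and 30432 (-0.35, SE 0.08, adjusted p = 0.011). *RPL37A* changed by -0.35 (SE 0.10, adjusted p = 0.030), *RPS18* by -0.30 (SE 0.08, adjusted p = 0.022), *RPS21* by -0.30 (SE 0.09, adjusted p = 0.025) and *RPS16* by -0.30 (SE 0.09, adjusted p = 0.040), all towards lower signal. The only member called higher was *RPL27A* (0.47, SE 0.15, adjusted p = 0.042), through a dim probe set that gave 519, 576 and 741 in untreated cells and 965, 817 and 766 in DMSO. The number called was 1 without the second untreated array or without the first or the third DMSO array. It was 2 without the first and 3 without the third untreated array, and 11 and 15 without the first and second doxorubicin arrays. Doxorubicin arrays enter this comparison only through the estimate of the spread that all groups share. The share of all genes called in these fits, and with the other probe sets below, is not given. These counts therefore describe the members only. The size of the shift depended on scaling: the median over members was -0.07 after centring on the arrays' medians, which moved that of all genes to 0.15, and -0.04 with quantile normalization, where that of all genes was 0.05. Relative to all genes, which centring moves alike, the members were 0.22 lower as deposited and 0.09 lower after quantile normalization. Probe sets disagreed as well: of 4 called members with other probe sets, 2 had the same sign throughout, and with plain probe sets where possible 3 members were called higher and 3 lower, with *RPL37A* at 0.47 and *RPS21* at 0.11. The 3' to 5' ratios also moved between these groups, to 1.25 to 1.30 in DMSO from 1.44 to 1.58 in untreated cells for *ACTB* and to 0.930 to 0.948 from 0.980 to 1.05 for *GAPDH*, without overlap (exact permutation p = 0.1 for each).

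The comparison of nutlin-3 with DMSO and that of DMSO with untreated cells share the DMSO arrays, so their values are set side by side. *RPL34* had 20227 ± 1282 in untreated cells, 16899 ± 1436 in DMSO and 23813 ± 1977 with nutlin-3 (SD, n = 3). *RPL24* had 37385 ± 299.8, 29416 ± 1492 and 33088 ± 2764, and *RPS18* had 32347 ± 1198, 26276 ± 1533 and 29212 ± 2463. Against untreated cells in place of DMSO, nutlin-3 gave a median over members of 0.02, with 28 of 52 above 0. There 5 members were called higher and 1 lower, where 39.8% of all genes were called, 21.2% higher and 18.6% lower. Set against DMSO in place of untreated cells, doxorubicin gave a median of 0.15, with 21 members higher and 4 lower, where 59.9% of all genes were called, 31.8% higher and 28.2% lower.

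**Figure D3:**
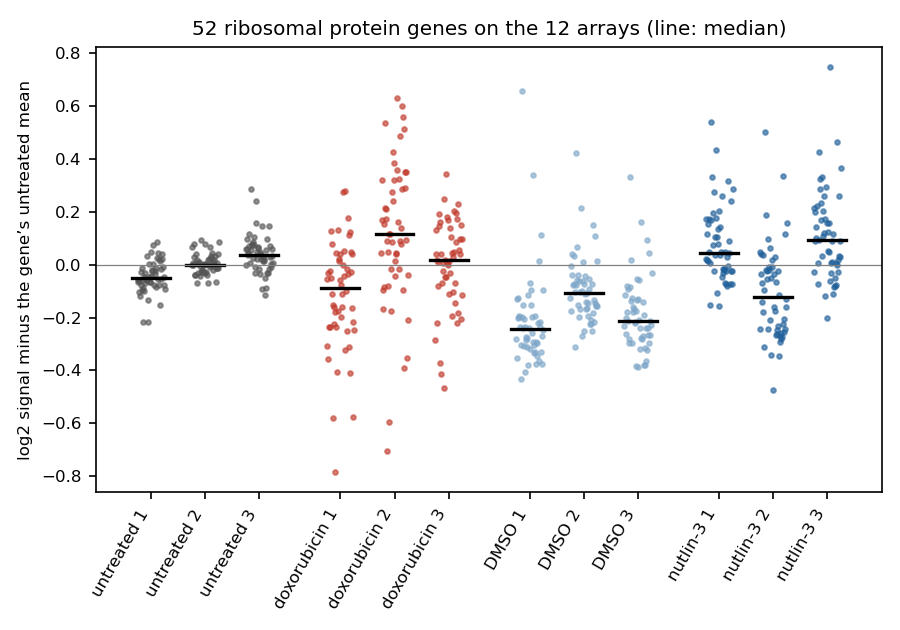
Log2 signal of each of the 52 ribosomal protein genes on each array minus the mean of that gene in untreated cells (vertical axis), by array. Points are genes and black lines are the median over genes, which is -0.24, -0.11 and -0.21 on the DMSO arrays and 0.04, -0.12 and 0.09 on the nutlin-3 arrays. Single genes reached -0.78 on the first doxorubicin array and 0.75 on the third nutlin-3 array.

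The responses to the agents differed for 12 members, in each of which the doxorubicin response was the lower one. These are 23.1% of members, while 39.7% of all genes were called, 17.7% in that direction and 21.9% in the other, where 0 members were called (limma) and 0 had an unadjusted p under 0.05. All genes were not counted at the unadjusted threshold. With arrays centred on the median of the members, a setting chosen after seeing the data, 5 differences were called lower and 6 higher, the latter *RPL23A*, *RPS4X*, *RPS15*, *RPS19*, *RPS24* and *RPS27*. That setting makes the members' median equal on every array and so removes any shift that they share. As deposited, the median difference was -0.17 over members and 0.07 over all genes. The largest were those of *RPL34* at -1.11 (SE 0.13, adjusted p = 7.1e-06) and *RPL3* at -0.87 (SE 0.12, adjusted p = 3.2e-05), which fell with doxorubicin and rose with nutlin-3. *RPS25* had -0.61 (SE 0.12, adjusted p = 0.00089), *RPS6* -0.60 (SE 0.13, adjusted p = 0.0018) and *RPL36* -0.58 (SE 0.14, adjusted p = 0.0043). The others were *RPL14* at -0.44, *RPS9* at -0.43, *RPL35A* at -0.38, *RPL30*, a component of the large subunit, at -0.33, *RPL19* at -0.31, *RPL37* at -0.31 and *RPL31* at -0.30. *RPL3*, *RPL34*, *RPS6* and *RPS25* passed in all 24 alternatives for the difference, though only *RPS6* of these had another probe set to choose. Of the 5 called members with other single-gene probe sets, those of 3 all shared the sign. The difference of *RPL36* changed sign with the mean of its probe sets. Different probe sets of *RPL31* were called in opposite directions with nutlin-3. *RPL19*, *RPL30*, *RPL31* and *RPL37* lost the call in 7 to 9 of the 12 fits that left out 1 array. Without the second nutlin-3 array 21 members were called. The share of all genes called in that fit, and with arrays centred on the members, is not given. These counts therefore describe the members only.

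Over the 52 members, the change with doxorubicin and that with nutlin-3, which share no array, had a Pearson correlation of -0.44, and over all 13707 genes it was 0.44. Without *RPL3* and *RPL34* it was -0.18 over 50 members. These values describe genes measured on the same 12 arrays, and genes are not independent replicates. Of the 52 members, 27 were above 0 with both agents and 25 were below 0 with doxorubicin and above 0 with nutlin-3.

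**Figure D4:**
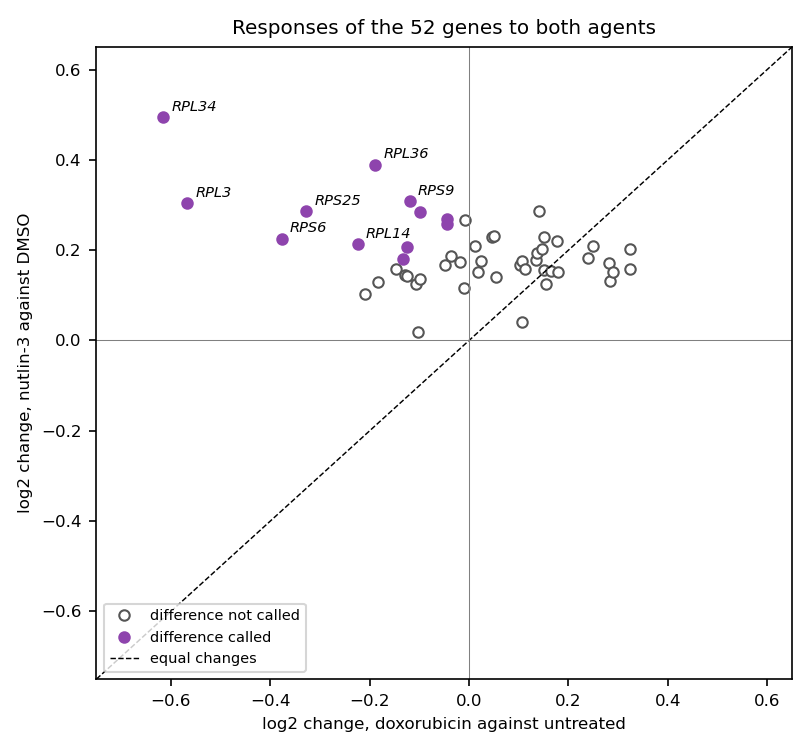
Log2 change with nutlin-3 against DMSO (vertical axis) and with doxorubicin against untreated cells (horizontal axis), 1 point for each of the 52 ribosomal protein genes. Filled points are the 12 genes whose responses differed at an adjusted p under 0.05, and the dashed line marks equal changes. *RPL34* (-0.62 and 0.49) and *RPL3* (-0.57 and 0.30) lie farthest from the line.

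Members that bind MDM2 or p53 in published work did not move as 1 group with doxorubicin. Of 14 such genes listed, 8 were measured, and with doxorubicin 2 rose (*RPS15* and *RPS27*) and 1 fell (*RPS25*), with a median of -0.03. With nutlin-3, 3 rose (*RPL11*, *RPL37* and *RPS25*) and 0 fell, with a median of 0.16. All 8 were above 0 with nutlin-3, as were all 52 members. The share called was 37.5% with each agent, beside 55.9% and 26.5% of all genes. *RPL11*, the measured protein gene of the 5S particle, gave 24303, 26689 and 25406 in untreated cells and 24496, 28619 and 26141 with doxorubicin. The groups overlapped, and the change was 0.05 (SE 0.08, adjusted p = 0.60). In DMSO *RPL11* was at 23237, 25342 and 23471 and with nutlin-3 at 28695, 26325 and 29545, all higher (0.23, SE 0.08, adjusted p = 0.038). That call was lost without the first (0.21, adjusted p = 0.12) or the third DMSO array (0.21, adjusted p = 0.12) and without the first (0.22, adjusted p = 0.094) or the third nutlin-3 array (0.20, adjusted p = 0.14). The other MDM2 binders measured were not called with either agent: *RPS3*, which also acts in base excision repair, had -0.01 and 0.12, *RPS7* had -0.12 and 0.14, and *RPS14*, a gene of the 5q- syndrome, had -0.15 and 0.16 (doxorubicin first). *RPL5*, *RPL23*, *RPL26*, *RPS20*, *RPS26* and *RPS27A*, and with them *RPL10*, *RPLP0* and *RPSA*, are not analysed here.

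The acidic stalk proteins, which recruit translation factors to the large subunit, were represented by *RPLP1* and *RPLP2*, and neither was called with doxorubicin against untreated cells, with nutlin-3 or in DMSO. Against DMSO, doxorubicin gave 0.40 for *RPLP1* (SE 0.09, adjusted p = 0.0014). *RPLP1* went from 41041 ± 2366 in untreated cells to 45874 ± 5989 with doxorubicin (SD, n = 3) and was at 34539 ± 1858 in DMSO and 37697 ± 3172 with nutlin-3. *RPLP2* was read only through a dim probe set, with 164 ± 16.05 in untreated cells and 201 ± 60.5 with doxorubicin. Of 19 genes of Diamond-Blackfan anaemia, an inherited failure of red cell production, 14 were measured. With doxorubicin 3 rose (*RPS19*, *RPS24* and *RPS27*) and 0 fell, and with nutlin-3 4 rose (*RPL11*, *RPL27*, *RPL31* and *RPL35A*) and 0 fell, with medians of 0.08 and 0.19. These are 21.4% and 28.6% of the list, beside 55.9% and 26.5% of all genes called.

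Paralogs of ribosomal protein genes, which the family as defined leaves out, included larger changes than any member. Of 10 listed with the fusion genes, 8 were measured, and with doxorubicin 4 rose and 2 fell (75%, beside 55.9% of all genes). *RPL22L1*, the paralog of *RPL22*, fell from 6438 ± 501 to 1373 ± 128 (SD, n = 3; -2.22, SE 0.09, adjusted p = 4.9e-12). *RPL22* itself had 19599, 20108 and 22437 in untreated cells and 20331, 22979.5 and 20824 with doxorubicin (0.05, SE 0.08, adjusted p = 0.67). With nutlin-3 *RPL22L1* went the other way, from 10018 ± 487 in DMSO to 14054 ± 970.3 (0.49, SE 0.09, adjusted p = 0.00051), and the difference of the responses was -2.70 (SE 0.13, adjusted p = 2.9e-10). *RPL39L*, the testis-enriched paralog of *RPL39*, rose with doxorubicin from 861 ± 68.5 to 2144 ± 355 (1.29, SE 0.12, adjusted p = 1.4e-07), while *RPL39* had 0.18 (SE 0.08, adjusted p = 0.079). *RPL10L*, a retrogene close in sequence to *RPL10* and so open to shared signal, rose by 1.35, and *RPL26L1* changed by -0.44 (SE 0.10, adjusted p = 0.0012).

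*RPS27L*, the p53-induced paralog of *RPS27*, rose with both agents. It went from 24084 ± 1777 to 37676 ± 2417 with doxorubicin (0.65, SE 0.08, adjusted p = 4.6e-06) and from 21992 ± 1291 to 35219 ± 2698 with nutlin-3 (0.68, SE 0.08, adjusted p = 9.3e-06). *RPS27* had 0.29 and 0.15 (SE 0.10, adjusted p = 0.29 with nutlin-3). *FAU*, whose product holds ribosomal protein RPS30 fused to a ubiquitin-like domain, rose by 0.44 with doxorubicin (SE 0.09, adjusted p = 0.00050) and by 0.28 with nutlin-3 (SE 0.09, adjusted p = 0.028). *RPL36AL* rose by 0.25 with nutlin-3 (SE 0.08, adjusted p = 0.028).

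Other genes whose messenger RNAs carry the TOP motif were set beside the family. Of 21 measured, mostly translation factors, 7 fell and 1 rose with doxorubicin (median -0.15), and 6 rose and 0 fell with nutlin-3 (median 0.15). Those are 38.1% and 28.6% of the list, while 55.9% and 26.5% of all genes were called. *EIF4B*, which assists the helicase of translation initiation, fell by 1.03 with doxorubicin (SE 0.09, adjusted p = 5.7e-08) and rose by 0.30 with nutlin-3 (SE 0.09, adjusted p = 0.020). *EIF3E*, a subunit of initiation factor eIF3, fell by 0.70 and rose by 0.20. *EEF1D*, an elongation factor subunit, was the one that rose with doxorubicin (0.35, SE 0.08, adjusted p = 0.0014), and *EIF3H* had the largest called rise of the list with nutlin-3 (0.31).

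Of 20 regulators of ribosomal protein synthesis, 5 rose and 7 fell with doxorubicin, and 3 rose and 1 fell with nutlin-3. At 60% and 20% these shares were near those of all genes, 55.9% and 26.5%. *SESN1* and *SESN2*, p53 targets that restrain mTORC1, rose by 2.64 and 1.505 with doxorubicin and by 2.11 and 1.00 with nutlin-3. *LARP1*, which binds TOP messenger RNAs, fell by 0.48 (SE 0.09, adjusted p = 0.00020) and by 0.33 (SE 0.09, adjusted p = 0.012). *EIF4EBP1*, the translation repressor regulated by mTORC1, fell by 1.17 and *EIF4E* fell by 0.68 with doxorubicin, and they had -0.11 and -0.04 with nutlin-3, neither called. *MYC*, an activator of ribosomal genes, fell by 0.49 with doxorubicin and rose by 0.36 with nutlin-3 (SE 0.13, adjusted p = 0.046).

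Genes for the assembly of the 5S particle, chaperones of ribosomal proteins and subunit export gave 11 falls and 3 rises of 22 with doxorubicin (median -0.26), and 3 rises and 1 fall with nutlin-3 (median 0.12). The shares called were 63.6% and 18.2%, against 55.9% and 26.5% of all genes. *ZNF622* and *NMD3*, which act on late large subunits, rose by 0.89 and 0.68 with doxorubicin, and *NOB1*, the nuclease that finishes 18S ribosomal RNA, fell by 0.74 and *PDCD2L* fell by 0.71. *RRS1*, which loads the 5S particle, rose by 0.62 with nutlin-3 (SE 0.15, adjusted p = 0.0049) and the import receptor gene *IPO9* fell by 0.46. Mitochondrial ribosomal protein genes, the family most like the cytosolic one, spread more widely with doxorubicin. Of 75 tested, 16 rose and 24 fell, with a SD of 0.50 against 0.20 over the cytosolic members and 0.82 over all genes, and a median of -0.03. The 53.3% called compare with 55.9% of all genes. With nutlin-3, 5 rose and 0 fell (median 0.10), and in DMSO against untreated cells their median was 0.03 against -0.19 for the cytosolic members.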

How the data were processed

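Total RNA of 12 U2OS samples was labelled with a 3' amplification kit and hybridised to 1-colour arrays, 1 per sample. The deposited values are linear intensities made by the authors with MAS5, per the submitters' processing notes; their trimmed mean is about 500.1 on every array, and no p-values or counts were given. The number of arrays, 3 per group, limits the precision. Probe sets were named from the platform annotation: 41097 had 1 gene, 1801 had several and 11777 were not listed. Probe sets with several genes and 62 control probe sets were left out. Each gene was read through its single-gene probe set with the highest mean, and genes with a mean signal under 54.6, the 40th percentile, were dropped, leaving 13707.

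Values were taken as log2(signal + 16) and fitted over all 4 groups with limma 3.58.1 in R 4.3.3 (lmFit, eBayes with trend), with Benjamini-Hochberg adjustment over all genes tested and a threshold of 0.05. On simulated data, with 100 genes changed at each size, the fit recovered 75% of log2 changes of 1 and 33% of changes of 0.5, with 6 false calls. Those genes were drawn at all signal levels, and far fewer changed than the 55.9% called here with doxorubicin. The shares recovered are therefore not the power for the members in these data. The members, the gene lists and the tests were chosen with earlier results of these data known. Genes named are those fixed by role, the called members and, in the other lists, those with the largest called changes; *LARP1* and *RPL22*, *RPL39* and *RPS27* as partners of paralogs were named for their role. Alternatives changed scaling, pseudocount, filter, probe set choice, variance model, array weights, threshold, control group and single arrays. Promoters and their coordinates were taken from RefSeq (GRCh38.p14). Deviations of arrays with the same replicate number from their group means correlated weakly, from -0.094 to 0.17, with 3 of 18 such pairs over 0.1. Replicate numbers were therefore not used as pairs, and a weak shared deviation was not tested.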

Additional observations from a re-analysis of the deposited data

Results flagged for a closer look

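For 12 ribosomal protein genes the test of the difference between the doxorubicin response and the nutlin-3 response passed the threshold (limma, adjusted p under 0.05 over all genes). The differences in log2 change, doxorubicin minus nutlin-3, were -1.11 for *RPL34*, -0.87 for *RPL3*, -0.61 for *RPS25* and -0.60 for *RPS6*. They were -0.58 for *RPL36*, -0.44 for *RPL14*, -0.43 for *RPS9* and -0.38 for *RPL35A*. The smallest were -0.33 for *RPL30*, -0.31 for *RPL19*, -0.31 for *RPL37* and -0.30 for *RPL31*. For some of these genes other probe sets gave the opposite sign, as given with the results. The responses were measured against different controls, and the signals of members in DMSO were themselves lower than in untreated cells. With arrays centred on the median of the members, chosen after seeing the data, 5 differences were called lower and 6 higher. That centring removes any shift that the members share, and the share of all genes called under it is not given. Groups of 3 arrays are too small for a test of single outlying values, and the effect of leaving out each array is given with the results.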

How the results depend on the processing

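*RPL3*, *RPL34*, *RPS6* and *RPS25* kept the sign and the call of their difference between agents under all 24 alternatives, whereas counts of called members depended on the setting. For *RPL3*, *RPL34* and *RPS25* the choice of probe set was not varied, as they had no other. With doxorubicin, 10 members were called, against 17 after quantile normalization, 6 with no filter, 16 with the mean of all probe sets, 5 at an adjusted p under 0.01 and 25 against DMSO, and their median of 0.02 became -0.16 with arrays centred on their medians and 0.15 against DMSO. With nutlin-3, 12 were called, against 1 after centring, 6 with no filter, 3 with no trend in the variance, 2 at an adjusted p under 0.01, 6 against untreated cells (median 0.017) and 2 to 17 when 1 array was left out. The difference between agents gave 12, against 5 at 0.01 and 8 to 21 when 1 array was left out, and its median of -0.17 became -0.32 after centring. DMSO against untreated cells gave 6, against 1 after centring, with no filter or with no trend, 11 with a filter at the 60th percentile, 12 with array weights, 21 with only the arrays compared, 1 to 15 when 1 array was left out, and 0 in limma at an adjusted p under 0.01 (28 at an unadjusted p under 0.05). Its median of -0.19 became -0.070 after centring and -0.037 after quantile normalization. The cause of these shifts was not tested. Shares of all genes called are not set beside these counts, which therefore describe the members only. At the unadjusted threshold all genes were not counted.

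With arrays centred on the median of the members, an alternative chosen after seeing the data, 20 members were called with doxorubicin (14 higher, 6 lower), 1 with nutlin-3, 11 for the difference (6 higher, 5 lower) and 3 in DMSO, and the medians were -0.00556 with nutlin-3, 0.057 for the difference and -0.038 in DMSO. That setting makes the members' median equal on every array. Medians near 0 are thus fixed in advance and tell nothing of the members' shift. With the replicate number as a block, 11 members were called with doxorubicin, 17 with nutlin-3, 13 for the difference and 13 in DMSO. The main fit did not use these numbers as pairs. Shares of all genes called are not given for these settings either.

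Named genes that changed sign, and were called before or after the change of setting, did so mainly with the choice of probe set. Changes of sign without a call were not counted here. With nutlin-3 all 52 members were above 0 against DMSO, and 28 of 52 were against untreated cells. With probe sets of the plain type where possible, *RPL37A* had -0.51 with doxorubicin and 0.47 in DMSO, *RPL31* -0.39 and *RPL35A* -0.033 with nutlin-3, and *RPS21* 0.11 and *RPS24* 0.73 in DMSO. The difference for *RPL36* was 0.059 with the mean of its probe sets, and *RPL39L* had 0.42 with nutlin-3 against untreated cells. Of 89 called values of named genes, 35 were called under every alternative. MAS5 signals carry no count, so no depth limit can be given, and the 3 dim probe sets are the least certain.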
